A study of Mus musculus with 2 samples.

Results

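The conjugating enzymes and dehydrogenases of the liver were taken here as 6 gene families, chosen by the start of their symbols: Ugt, Sult, Fmo, Adh followed by a digit, Aldh and Akr, without Aldh3a2 and Akr1d1. A total of 90 probe sets with a single annotated symbol met this rule, and they represented 58 of the 12393 genes named on the array. One of the 58, Fmod, encodes fibromodulin, a proteoglycan of the extracellular matrix, and shares only the letters of its symbol with the flavin-containing monooxygenases. The other 57 belong to the named enzyme families, although the Fmo genes encode oxygenases and the Akr genes reductases, so the name of the group is narrower than its members.

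The study measured liver RNA on Affymetrix arrays from mice that lack apolipoprotein E and were kept on a high-fat diet, and asks how the type of olive oil relates to hepatic gene expression. The tested diet was enriched in the oil's unsaponifiable fraction, the minor components other than fatty acid esters (sample titled orujo, 1 array). The comparison diet was enriched in olive oil itself (sample titled olive, 1 array). Both arrays share the missing Apoe gene, the fat-rich diet, the tissue, the extraction kit and a start of about 8 µg of total RNA. The labels name animals in the plural, but sex, age, strain background, time on the diet and any pooling of RNA are not stated.

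These families carry out much of the liver's handling of foreign compounds, steroids and reactive carbonyls. UDP-glucuronosyltransferases (Ugt) attach glucuronic acid, and sulfotransferases (Sult) attach sulfate, to phenols, steroids, bilirubin or drugs, which makes them soluble for bile or urine. Flavin-containing monooxygenases (Fmo) oxidise nitrogen and sulfur atoms. Alcohol dehydrogenases (Adh), aldehyde dehydrogenases (Aldh) and aldo-keto reductases (Akr) interconvert alcohols, aldehydes, ketones and acids, among them ethanol, retinol and steroid hormones.

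Promoter sequences are shown for 4 genes from the ends of the ranges of family ratios given below. Akr1c12, Akr1c13 and Akr1c14 lie near each other on chromosome 13. Read from 1 probe set per gene, they held the 3 lowest log2 ratios of the measured aldo-keto reductases. A further probe set of Akr1a1 was at −0.63, lower than Akr1c12 and Akr1c13. Sult1d1, on chromosome 5, held the highest ratio of the sulfotransferases above the floor on both arrays. Each sequence covers the 250 bases before the gene's annotated start, in the direction of the gene, from RefSeq on build GRCm38.p6, with motif matches in capitals.
Akr1c12 (chr13:4279400-4279649, minus strand): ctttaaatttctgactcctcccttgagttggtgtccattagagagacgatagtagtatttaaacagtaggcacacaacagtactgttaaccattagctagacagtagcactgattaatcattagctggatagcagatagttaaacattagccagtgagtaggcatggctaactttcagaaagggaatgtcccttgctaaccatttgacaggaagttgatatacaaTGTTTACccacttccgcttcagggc
Akr1c13 (chr13:4190937-4191186, plus strand): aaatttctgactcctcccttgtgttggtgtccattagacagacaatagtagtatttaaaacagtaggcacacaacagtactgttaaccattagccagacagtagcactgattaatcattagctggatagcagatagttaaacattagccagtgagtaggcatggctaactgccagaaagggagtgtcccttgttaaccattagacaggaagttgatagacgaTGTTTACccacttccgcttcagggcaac
Akr1c14 (chr13:4059341-4059590, plus strand): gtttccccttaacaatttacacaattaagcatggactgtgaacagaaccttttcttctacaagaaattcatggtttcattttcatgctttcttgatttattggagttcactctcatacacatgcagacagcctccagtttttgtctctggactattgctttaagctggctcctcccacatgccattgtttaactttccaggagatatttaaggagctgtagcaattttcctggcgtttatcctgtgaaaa
Sult1d1 (chr5:87569007-87569256, minus strand): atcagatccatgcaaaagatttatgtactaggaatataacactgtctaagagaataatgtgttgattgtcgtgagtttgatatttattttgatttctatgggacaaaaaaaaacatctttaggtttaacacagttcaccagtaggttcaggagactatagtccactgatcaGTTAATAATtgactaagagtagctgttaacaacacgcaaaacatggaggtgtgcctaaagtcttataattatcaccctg

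The capitals in Akr1c12 and Akr1c13 mark the forkhead site TGTTTAC, whose first base lies 25 and 28 bases before the start. Those in Sult1d1 mark GTTAATNAT, most of a binding site of the hepatocyte factor HNF1, which begins 79 bases before the start. Aligned without a charge for end gaps, the Akr1c12 and Akr1c13 windows shared 235 of 246 paired bases (95.5%). RefSeq promoters were matched for 49 of the 58 genes, in 55 windows. On either strand and with no overlap among the capitals shown, TGTTTAC occurred in 7 of the 55 windows (12.7%), against 3.17% of all 32851 windows of the same length. GTTAATNAT occurred in 1 of the 55 windows (1.82%), against 0.737% of all windows. The core of the antioxidant response element, TGACNNNGC, occurred in 3 of the 55 (5.45%), against 10.2% of all windows, and in none of the 4 sequences printed. TATAAA occurred in 8 of the 55 (14.5%), against 12.4% of all windows. A match is a description of letters. Neighbouring paralogs share sequence, and these 4 motifs were picked after 19 had been scanned.

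The deposited values are intensities of probe sets on a linear scale. They were scaled to a common trimmed mean, and any value under a floor of 35.6 (the 50th percentile of both arrays pooled) was set to that floor before taking log2. A gene that cleared the floor in both livers' arrays is called measured, each gene is read from its probe set of highest mean log2 value, and the log2 ratio is the orujo array minus the olive array. With 1 array per diet there are no replicates: every ratio compares 2 arrays, the diets could not be tested and no p-value appears. The only repeated measurement is between different probe sets of a gene. Over 2057 genes with 2 measured probe sets this gave a noise SD of 0.305 log2 units for a single probe set, which holds no variation between animals. In bulk liver RNA, fewer cells of a type and less RNA per cell cannot be told apart.

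Facts of the whole arrays frame these ratios. Of 12393 genes, 6640 were measured, 394 lay above the floor only on the orujo array and 584 only on the olive array. The 10 hepatocyte markers listed (among them Alb, Ttr and Hnf4a) were measured on both arrays, with a median log2 ratio of 0.18 and summed signals of 54810 and 50130 on the orujo and olive arrays. Markers of the exocrine pancreas stood apart: 8 of 9 were measured, and each of the 8 was past 2-fold on the lower side, with summed signals of 684 on the orujo array and 5383 on the olive array. Of 10 Kupffer cell markers all were measured, with a median of 0.31. Of 5 cholangiocyte markers with a probe set, 0 were measured. For 18S ribosomal RNA, the control at the 5′ end was at 2.54 on the log2 scale. The part of these differences in the values below was not tested.

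Among the 58 genes, 38 were measured, 3 lay above the floor only on the orujo array, 2 only on the olive array and 15 on neither. No measured member differed by 2-fold: 0 of 38 were at least 2-fold higher, where the background was 1.36% of all measured genes, and 0 were at least 2-fold lower, where it was 0.979%. At these rates fewer than 1 call in either direction would fall among 38 genes, so a count of 0 does not set the families apart. At 1.5-fold, 1 member was higher (background 5.57%) and 3 were lower (background 5.56%). The median log2 ratio of the 38 was −0.06, beside −0.02 over all measured genes, and their SD was 0.37, beside 0.42. The ratio was below 0 for 20 of the 38, against 52.5% of all measured genes. None of the 5 genes above the floor on 1 array only had a bound of 2-fold (background 2.86% of 978 such genes), and 2 had one of 1.5-fold (background 15.2%). A ratio beyond the noise SD in either direction was found for 14 of the 38, against 37.1% of all measured genes.

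**Figure D1:**
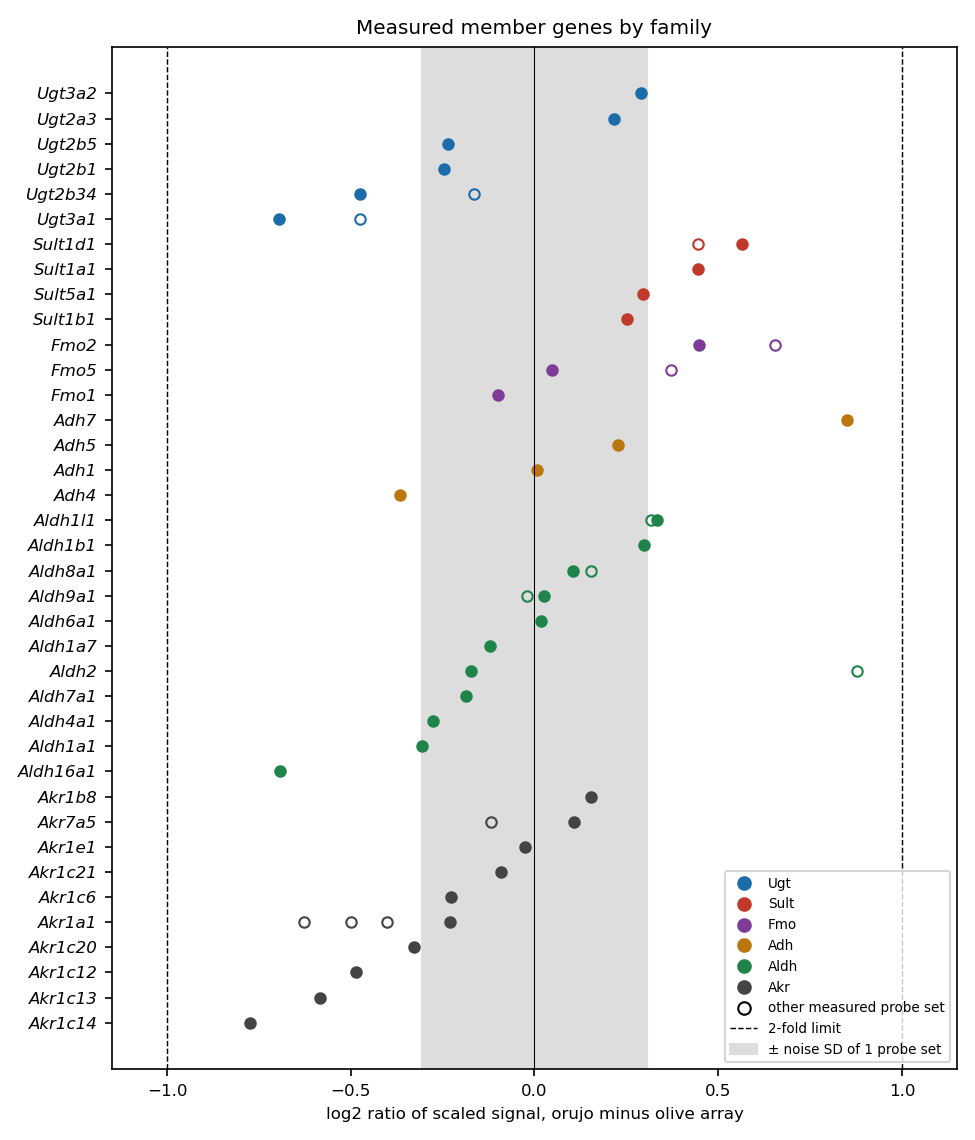
Log2 ratio of scaled signal (orujo minus olive array, x axis) for the 38 measured genes, grouped and coloured by family. Filled points are the probe set that represents the gene, open points its other measured probe sets, the grey band is plus or minus the noise SD of 0.305 and dashed lines mark 2-fold. All points lie inside the 2-fold lines, the 4 Sult genes lie right of 0 and the 6 Akr1c genes lie left of it.

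The family medians lay on both sides of 0. Only the measured sulfotransferases had all their ratios on a single side, and every other family had ratios on both. Sulfotransferases had a median log2 ratio of 0.37 and aldo-keto reductases one of −0.23. UDP-glucuronosyltransferases had a median of −0.24, aldehyde dehydrogenases of −0.12, alcohol dehydrogenases of 0.12 and flavin-containing monooxygenases of 0.05. These medians are descriptions of 3 to 11 genes each.

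All 4 measured sulfotransferase genes had higher signal on the orujo array, and so did all 5 of their measured probe sets. The background for a ratio above 0 was 47.5%, and 4 genes are too few to set the family apart from it. Sult1d1, whose enzyme sulfates catecholamines and other amines in mice, had a signal of 750 on the orujo array, against 507 on the olive array, and was 1.48-fold higher. Its second probe set gave a log2 ratio of 0.44, beside 0.56 for the first. Sult1a1, the phenol sulfotransferase, had 3441 on the orujo array, against 2526 on the olive array (1.36-fold higher). Both ratios exceed the noise SD. Those of Sult5a1 (122 on the orujo array against 99.2 on the olive array, log2 ratio 0.30) and Sult1b1, which acts on thyroid hormones (66.6 on the orujo array against 55.8 on the olive array, log2 ratio 0.25), do not.

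The other sulfotransferases with signal lay above the floor on 1 array only. Sult1e1, which inactivates oestrogens by sulfation, had a scaled signal of 59.2 on the orujo array and 1.30 on the olive array. Against the floor it was at least 1.66-fold higher. A lower floor, at the 25th percentile (11.8), gave at least 5.02-fold, so the size of this difference is set by the floor. Sult2a2, a hydroxysteroid sulfotransferase, lay on the other side, with 13.6 on the orujo array and 52.8 on the olive array. It was at least 1.48-fold lower, and 3.88-fold lower with the lower floor. Sult1c2 had 14.7 on the orujo array and 36.3 on the olive array, where it barely cleared the floor (a bound of 1.02-fold lower). With the lower floor it was 2.46-fold lower. Each of the 3 is read by a single probe set. The brighter of its 2 signals is below 60 in each case, so these genes rest on dim values. Sult1c1, Sult2b1, Sult3a1 and Sult4a1 were below the floor on both arrays.

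Because Sult2a2 belongs to a subfamily that female mouse livers express more, sex-biased and sex-linked genes were read as well. Of 10 female-predominant genes with a probe set, 6 were below the floor on both arrays, among them Cyp2b9, Cyp2b13 and Cyp3a44. Another 2 were measured, Trim24 (1.90-fold higher) and Acot3 (1.76-fold higher). Cyp17a1 lay above the floor only on the orujo array, at least 4.10-fold higher, and Xist only on the olive array, with 32.2 on the orujo array and 47.5 on the olive array. Of 12 male-predominant genes with a probe set, 11 were measured with a median of 0.07, 6 ratios above 0 and 5 below. They ran from Hsd3b5, a steroid dehydrogenase (2.18-fold lower), to Cyp7b1, a sterol hydroxylase (2.16-fold higher). Between these, Cyp2d9 had 2577 on the orujo array and 2814 on the olive array, and Cyp4a12a 1492 and 1422. The Y-linked Uty had 57.7 and 72.8, and Eif2s3y 46.4 and 54.3, on the orujo and olive arrays. The Y-linked Kdm5d lay above the floor only on the orujo array, with 44.3 there and 20.7 on the olive array, so the 3 genes did not point to 1 side. The part of sex in the sulfotransferase values was not tested.

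Sulfate donors come from a separate set of genes. Of 10 genes listed for sulfate activation and desulfation, 8 were measured, with 5 ratios above 0 (background 47.5%) and a median of 0.19. Of these, 0 were past 2-fold (background 1.36% higher and 0.979% lower). Slc35b2, a Golgi carrier of the sulfate donor PAPS, was highest (1.44-fold higher) and Arsa, the lysosomal arylsulfatase A, lowest (1.85-fold lower). The PAPS synthases pointed to opposite sides, with Papss2 at 0.21 and Papss1 at −0.55 on the log2 scale.

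**Figure D2:**
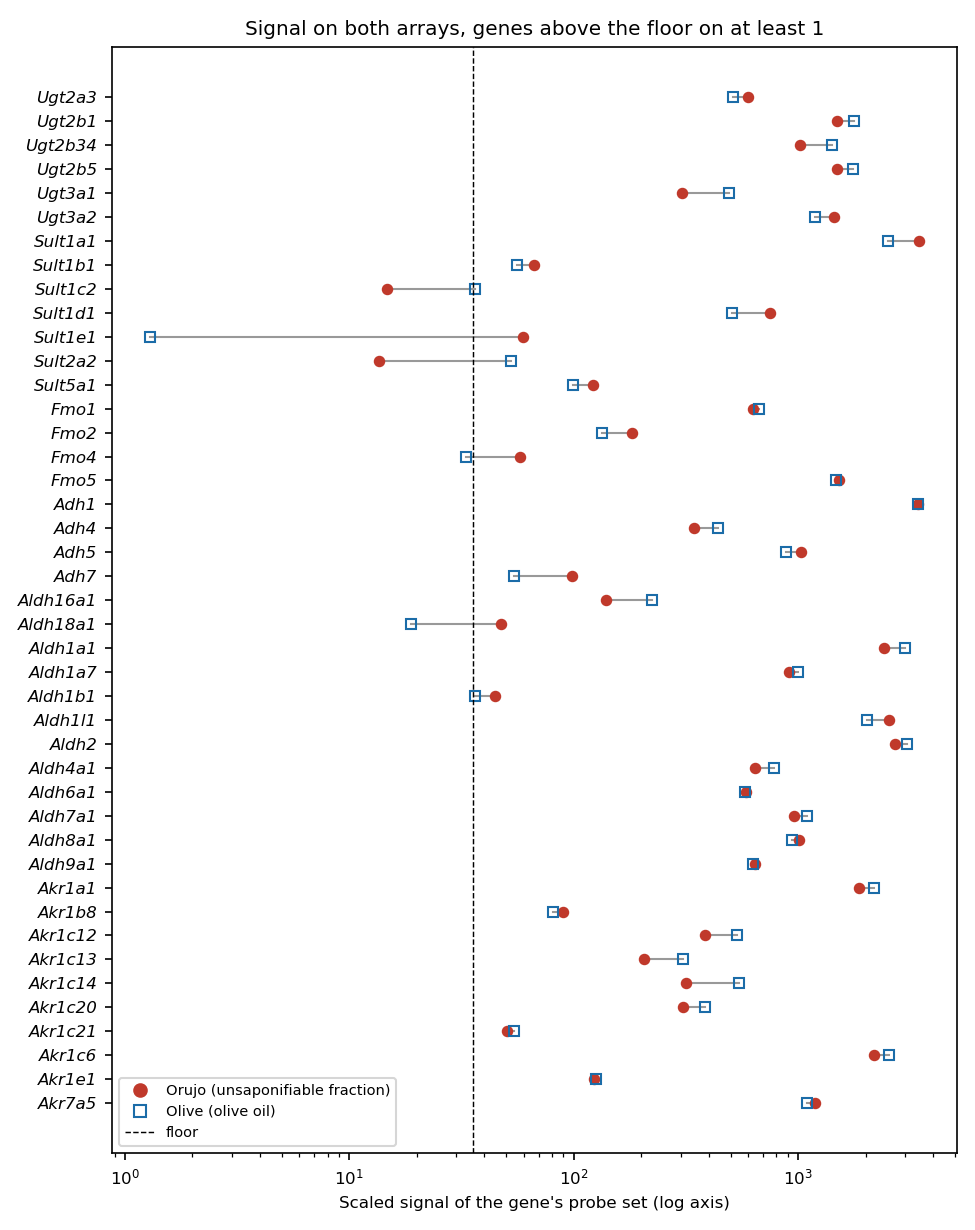
Scaled signal (x axis, log scale) of the representative probe set of each gene above the floor on at least 1 array, on the orujo array (filled circles) and the olive array (open squares); the dashed line is the floor of 35.6. Sult1e1 is drawn at 59.2 on the orujo array and 1.30 on the olive array, where it lies below the floor and has only a bound; signals of different genes come from different probe sets and are not comparable.

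Among UDP-glucuronosyltransferases, 6 of 9 genes were measured and 4 had lower signal on the orujo array. The background for a ratio below 0 was 52.5%, and so few genes do not set the family apart from it. All 3 measured Ugt2b genes, which glucuronidate steroids, bile acids and drugs, were on that side. Ugt2b34 had 1017 on the orujo array, against 1412 on the olive array (1.39-fold lower), but its second probe set, which lacks the suffix for shared sequence, gave only −0.16. Ugt2b1 had 1488 on the orujo array, against 1766 on the olive array, a log2 ratio of −0.25. Ugt2b5 had 1495 on the orujo array, against 1760 on the olive array, a log2 ratio of −0.24. These last values are within the noise SD, and the Ugt2b genes are close paralogs whose probe sets can share signal. Ugt2a3 had 598 on the orujo array and 515 on the olive array (log2 ratio 0.22).

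The Ugt3 genes, whose human counterparts use UDP sugars other than UDP-glucuronic acid, pointed to opposite sides. Ugt3a1 had 303 on the orujo array, against 491 on the olive array. It was 1.62-fold lower, the lowest ratio of the measured genes of the family, and its second probe set gave −0.47. Ugt3a2 had 1452 on the orujo array, against 1187 on the olive array, and was 1.22-fold higher, within the noise SD. Ugt2b37, Ugt2b38 and Ugt8a, the ceramide galactosyltransferase of myelin, were below the floor on both arrays.

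Signal of the Ugt1a genes, which share their last exons and include the bilirubin-conjugating enzyme, came from 3 probe sets that carry the same 8 symbols. They are no members and are named for no gene. Their log2 ratios were −0.02, −0.05 and −0.13, all within the noise SD, with signals between 1589 and 4484 on the orujo array and between 1739 and 4544 on the olive array.

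Genes that make and carry UDP sugars were read beside the Ugt genes. Of 8 genes listed for UDP-sugar supply and deconjugation, 7 were measured and all 7 had negative ratios, where the background for a ratio below 0 was 52.5%. Their median was −0.34. Of the 7, 0 passed 2-fold (background 1.36% higher and 0.979% lower) and 4 lay beyond the noise SD (background 37.1%). The list includes Gusb, β-glucuronidase, which removes glucuronic acid, at −0.34. Ugdh, which oxidises UDP-glucose to UDP-glucuronic acid, had 573 on the orujo array, against 1030 on the olive array (1.80-fold lower). Ugp2, which makes UDP-glucose, had 941 on the orujo array, against 1615 on the olive array (1.72-fold lower). The smallest difference was that of Slc35b1, a carrier of the endoplasmic reticulum, at −0.16. The pancreas markers and the 18S control differed between the same arrays, as given above.

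Aldo-keto reductases held the lowest ratio among the representative probe sets of the 38 measured genes. Of 13 genes 10 were measured, and 8 had negative ratios, as did 12 of the 14 measured probe sets. The background for a ratio below 0 was 52.5% of all measured genes. All 6 measured Akr1c genes, which reduce keto groups of steroids and prostaglandins, had negative ratios, with a median of −0.41. Akr1c14, the 3α-hydroxysteroid dehydrogenase of mouse liver, had 318 on the orujo array, against 544 on the olive array, and was 1.71-fold lower. Akr1c13 had 205 on the orujo array, against 308 on the olive array (log2 ratio −0.58). Akr1c12 had 383 on the orujo array, against 537 on the olive array (1.40-fold lower).

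A further probe set that carries the symbols of both Akr1c12 and Akr1c13 is no member and gave a log2 ratio of only −0.10, with 639 on the orujo array and 684 on the olive array. The single-symbol probe sets of the pair were at −0.49 and −0.58. The SD of the difference between 2 probe sets of a gene was 0.431, which the gap to Akr1c12 does not reach and the gap to Akr1c13 does. The promoters printed above share 95.5% of paired bases, and how the transcripts of these close copies divide among the 3 probe sets is uncertain. Akr1c20 was at −0.33, with 306 on the orujo array and 384 on the olive array. Akr1c6, a 17β-hydroxysteroid dehydrogenase, was at −0.23, with 2172 on the orujo array and 2541 on the olive array. Akr1c21 was at −0.09. Because the Akr1c probe sets target related sequences of neighbouring genes, the 6 values are not independent measurements. Akr1c18, Akr1cl and Akr1b10 were below the floor.

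Akr1a1, the aldehyde reductase that also serves vitamin C synthesis in mice, was read by 4 probe sets, more measured ones than any other member. Their log2 ratios were −0.23, −0.40, −0.63 and −0.50. The representative one had 1861 on the orujo array and 2182 on the olive array. All 4 were negative and 3 exceeded the noise SD. All 4 carry a suffix for shared sequence. Outside the Akr1c and Akr1a genes the family stayed near 0: Akr1b8 was at 0.15, Akr1e1 at −0.03, and the probe sets of Akr7a5, a reductase of dialdehydes, at 0.11 and −0.12.

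Alcohol dehydrogenases held the highest ratio among the representative probe sets of the 38 measured genes. Adh7, the class IV enzyme, best known as a retinol dehydrogenase of the stomach and other epithelia, had 97.8 on the orujo array, against 54.3 on the olive array. It was 1.80-fold higher. Its other probe set was below the floor on both arrays. Adh1, the main ethanol dehydrogenase of the liver, had 3435 on the orujo array and 3420 on the olive array, a log2 ratio of 0.01. Adh5, the glutathione-dependent formaldehyde dehydrogenase, had 1029 on the orujo array and 879 on the olive array (log2 ratio 0.23). Adh4 had 342 on the orujo array, against 441 on the olive array (1.29-fold lower). The 4 genes lie together on chromosome 3 and covered both sides of 0.

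Of 16 aldehyde dehydrogenase genes 11 were measured, 5 with positive and 6 with negative ratios. Aldh1a1, retinal dehydrogenase, had 2425 on the orujo array, against 2997 on the olive array (1.24-fold lower). Its near copy Aldh1a7 was at −0.12. Aldh1a2 and Aldh1a3 were below the floor. Aldh1l1, which oxidises 10-formyltetrahydrofolate in folate metabolism, had 2547 on the orujo array, against 2023 on the olive array. It was 1.26-fold higher, the highest among the representative probe sets of the measured genes of the family, and its second probe set gave 0.32 beside 0.33. Aldh16a1 had 139 on the orujo array, against 224 on the olive array (1.62-fold lower), the lowest among the same probe sets.

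The representative probe sets of the enzymes of amino acid and carnitine metabolism lay within the noise SD. Aldh4a1, of proline breakdown, was at −0.28, Aldh7a1, of lysine breakdown, at −0.19, Aldh6a1, of valine breakdown, at 0.02, and Aldh8a1, of the kynurenine pathway, at 0.10. A second probe set of Aldh7a1 lay above the floor only on the olive array, with 28.4 on the orujo array and 59.2 on the olive array, at least 1.66-fold lower. Aldh9a1, which acts in carnitine synthesis, gave 0.03 and −0.02 in its 2 probe sets. Aldh1b1 had 44.5 on the orujo array and 36.3 on the olive array, close to the floor (log2 ratio 0.30).

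Aldh2, the mitochondrial enzyme that clears acetaldehyde, was the member whose probe sets disagreed most. The representative one had 2712 on the orujo array and 3059 on the olive array (log2 ratio −0.17). A second had 100.3 on the orujo array, against 54.5 on the olive array, a log2 ratio of 0.88. The third lay above the floor only on the orujo array, at least 2.92-fold higher. The probe sets therefore gave no single direction for Aldh2.

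Aldh18a1, which starts proline synthesis, had 5 probe sets and none above the floor on both arrays: 1 cleared it only on the orujo array and 1 only on the olive array. Aldh3a1 and Aldh3b1 were below the floor. Over all members, 11 genes had several measured probe sets. In 8 of them every probe set had the same sign, and the exceptions were Aldh2, Aldh9a1 and Akr7a5. The same share over all genes with several measured probe sets was not calculated, so this count does not set the members apart.

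The 3 measured flavin-containing monooxygenases had log2 ratios between −0.10 and 0.45. Fmo5 had 1525 on the orujo array and 1476 on the olive array (log2 ratio 0.05), with 0.37 in its second probe set. Fmo1 had 627 on the orujo array and 671 on the olive array (log2 ratio −0.10). Fmo2, best known as the enzyme of the lung, had 183 on the orujo array, against 134 on the olive array. It was 1.36-fold higher, and its second measured probe set gave 0.65. Fmo4 lay above the floor only on the orujo array, at least 1.62-fold higher, with 57.7 there and 33.0 on the olive array. The 6 probe sets of Fmod were below the floor on both arrays.

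Some genes of the other fixed lists passed the 2-fold limit. No measured member did, a count that, as given above, does not set the families apart. Of 13 measured genes of retinoid handling, 9 had ratios above 0 (background 47.5%) and 1 passed 2-fold (background 1.36% on the higher side). This was Cyp26a1, which degrades retinoic acid, with 137 on the orujo array, against 65.2 on the olive array (2.11-fold higher). Retsat, retinol saturase, was lowest at 1.56-fold lower. Of 12 measured genes of methyl, acetyl and glycine conjugation, listed with 2 epoxide hydrolases among them, 1 was past 2-fold on the higher side (background 1.36%) and 2 on the lower side (background 0.979%), with a median of −0.03. Nnmt, which methylates nicotinamide, had 1159 on the orujo array, against 107 on the olive array (10.8-fold higher). Inmt, an amine methyltransferase, was 2.98-fold lower, and Ephx1, microsomal epoxide hydrolase, which attaches none of these groups, 2.62-fold lower.

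Other enzymes of aldehydes and ketones were listed as well. Of 10 measured genes listed with aldehyde, ethanol and polyol metabolism, 7 had negative ratios (background 52.5%), with a median of −0.29. Aox1, aldehyde oxidase, had 144 on the orujo array, against 404 on the olive array, and at 2.80-fold lower was the 1 gene past 2-fold on that side, where the background was 0.979%. Gulo, the last enzyme of vitamin C synthesis, was highest at 1.21-fold higher.

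Regulators and known targets were read from the same arrays. Of 12 measured regulators of these families, 0 passed 2-fold (background 1.36% higher and 0.979% lower) and the median was 0.13. Nfe2l2, which encodes the oxidative stress regulator NRF2, was lowest at 1.78-fold lower, and Cebpb, an acute phase transcription factor, highest at 1.65-fold higher. The receptor genes Nr1i3 (CAR), Nr1i2 (PXR) and Ppara were at −0.14, 0.24 and 0.15, within the noise SD. Of 10 measured classic NRF2 targets, 8 lay below 0 (background 52.5%), of which 4 passed 2-fold (background 0.979% on that side). The median was −0.59. The 4 were Gstm3, Gsta2 and Gstm1, which encode glutathione transferases, and Gclc, the catalytic subunit of glutathione synthesis, from 5.05-fold to 2.16-fold lower. The probe sets of the glutathione transferase genes carry a suffix for shared sequence, so their values may not be separate measurements. Hmox1 was highest at 0.15. Whether the families differ from these targets was not tested, because genes on an array are not replicates.

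**Figure D3:**
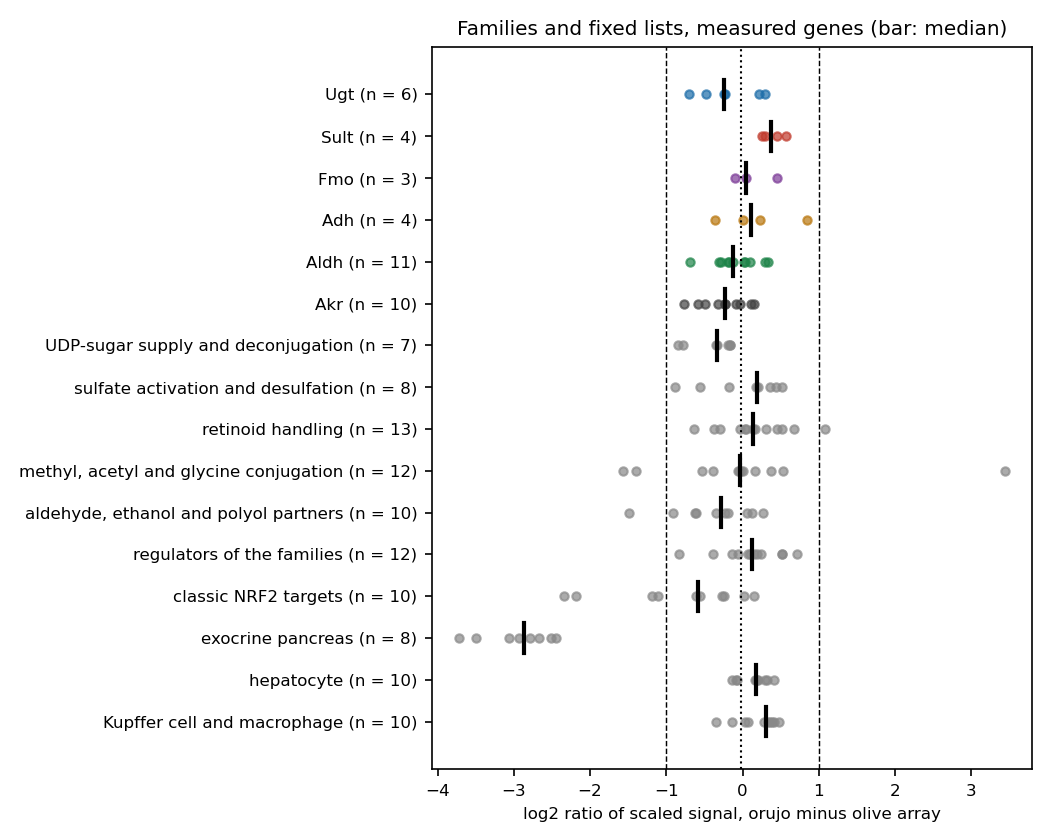
Log2 ratio of scaled signal (orujo minus olive array, x axis) of measured genes in the 6 families (coloured) and in other fixed gene and marker lists (grey); each point is a gene, bars are medians, dashed lines mark 2-fold and the dotted line is the median of all measured genes (−0.02). Family points lie between −0.77 and 0.85, while the NRF2 targets reach −2.34 and the pancreas markers have a median of −2.86.

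The family medians kept their sides to differing degrees when the arrays were processed otherwise. Under other scalings, floors, transforms and choices of probe set, the sulfotransferase median stayed between 0.30 and 0.50. The medians of the aldo-keto reductases (−0.33 to −0.21) and UDP-glucuronosyltransferases (−0.32 to −0.20) stayed below 0. The median of the alcohol dehydrogenases stayed above 0 but came close to it (0.006 to 0.135). That of the aldehyde dehydrogenases crossed 0 (−0.20 to 0.02), as did that of the flavin-containing monooxygenases (−0.01 to 0.37).

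**Figure D4:**
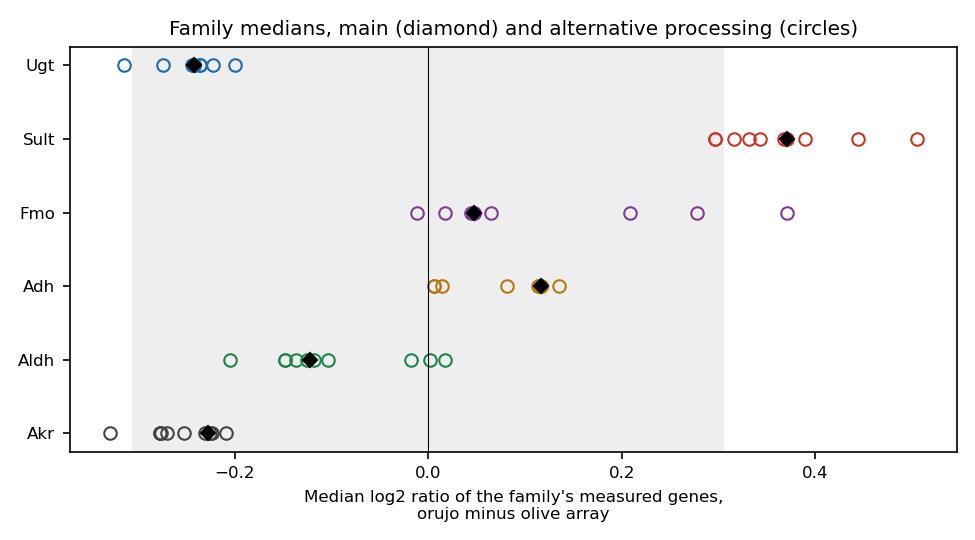
Median log2 ratio of each family's measured genes (orujo minus olive array, x axis) under the main processing (diamonds) and each alternative (circles), with the noise SD of a single probe set, which is not the spread of a median, in grey. Sult medians lie between 0.30 and 0.50, Akr and Ugt medians lie left of 0, and Aldh and Fmo circles lie on both sides of 0. Adh medians lie between 0.006 and 0.135.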

How the data were processed

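Liver RNA was measured on 1 array per diet. The authors deposited linear probe set intensities, 1 column per sample. The labels name neither the summary software nor detection calls. The columns had a 2% trimmed mean of 100.05 each as deposited. Precision is limited by the number of arrays.

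Without the 64 control probe sets, each array was brought to the common 2% trimmed mean of the other 22626. Values under the floor (50th percentile) were raised to it before log2. The platform annotation gave 1 symbol to 20380 probe sets, several to 691 and none to 1555, and the Entrez identifiers of all 58 member genes matched RefSeq (GRCm38.p6). Fold limits were 2, with 1.5 and 3 as alternatives. Other alternatives were quantile normalization, loess (span 0.4), median centring or no scaling, a floor at the 25th or the 75th percentile, adding the floor before log2, averaging a gene's probe sets, and leaving out probe sets with the suffix _a_at, _s_at or _x_at. Counting every measured probe set was added after seeing the data.

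Named genes were members past 2-fold, extremes and highest signals of each family, members with signal of at least 1000 or with disagreeing probe sets, and the extremes of each fixed list with any gene past 2-fold. Other members, listed genes and markers given were named after their values were seen. Members and lists were chosen with earlier results of these data known. The calculation was checked on simulated data, with planted changes larger than that of any measured member, in genes well above the floor. This check does not cover smaller differences or genes near the floor. Python 3.11.15, numpy 2.4.6, pandas 2.3.3, scipy 1.17.1, statsmodels 0.14.6 and Biopython 1.88 were used.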

Additional observations from a re-analysis of the deposited data

Results flagged for a closer look

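The 5′ and middle control probe sets for 18S ribosomal RNA, which lie outside the genes compared, had log2 ratios of 2.54 and 2.48, with higher signal on the orujo array. The 3′ control was at 0.34. Their part in the values of the 6 families was not tested.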

How the results depend on the processing

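No paired analysis was possible because each diet has 1 array. A floor at the 25th percentile admits dim genes. It left 1 measured member past 2-fold on the higher side and 2 on the lower side, in place of 0 and 0. The 1 was Aldh18a1 (2.52-fold higher), and the 2 were Sult2a2 and Sult1c2. Another probe set of Aldh18a1 went the other way, with 23.0 on the orujo array and 38.3 on the olive array. Sult1e1 and Ugt2b37 had bounds past 2-fold on the higher side at this floor (5.02 and 2.05). The share of all genes past 2-fold at this floor was not calculated. The 1.5-fold limit gave 1 and 3, and the 3-fold limit 0 and 0. The other alternatives also gave 0 and 0. Counting every measured probe set, the median of the flavin-containing monooxygenases was 0.37 in place of 0.05. Of 330 alternative values for the 38 measured genes, 2 moved by more than the noise SD of 0.305: Aldh2 averaged over its probe sets (0.35) and Ugt2b34 without shared probe sets (−0.16). The sign changed under at least 1 alternative for 5 genes, Adh1, Akr7a5, Aldh2, Aldh6a1 and Fmo5. The median of all members ranged from −0.15 to −0.02. Values near the floor, such as those of Sult1e1 and Sult2a2, are limited by it.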
